A study of Mus musculus with 31 samples.

Results

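A set of 9 genes of blood coagulation, fibrinolysis and the thrombospondin family was followed in mouse Ly6C-hi monocytes: Thbs1, F3, F5, F7, F10, F13a1, Plau, Plaur and Serpinb2. They were chosen by symbol, with earlier results of these data known, so counts over them are descriptions and no test of the set. All 9 were found among the 24411 entries of the deposited count table. RNA-seq had been done on 3 libraries from the blood of healthy C57BL/6J mice (healthy blood), 3 from the blood of C57BL/6J mice carrying a tumor of Lewis lung carcinoma cells (LLC blood) and 3 from the tumors themselves (LLC tumor). Lewis lung carcinoma (LLC) is a transplantable mouse lung tumor line, here grown under the skin, so the tumors are grafts and not lung tumors that arose in place. The cells of all 3 groups were sorted as CD11b+, Ly6G-, Ly6C-hi and MHC-II-. The labels name no engineered allele or drug, and they give no age for the mice. The labels do not say whether tumor and blood libraries came from the same mice, or that replicates of a group came from separate mice, so p-values measure the spread between these libraries, which may be technical.

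As background, coagulation starts when tissue factor, the membrane protein encoded by F3, meets factor VII (F7). Their complex activates factor X (F10), which works with its cofactor factor V (F5) to make thrombin. Thrombin turns fibrinogen into fibrin, and factor XIII, whose catalytic A subunit is encoded by F13a1, cross-links the fibrin strands. Fibrinolysis runs the other way: urokinase (Plau), held at the cell surface by its receptor (Plaur), turns plasminogen into plasmin, which cuts fibrin. Serpinb2 encodes plasminogen activator inhibitor 2, which blocks urokinase. Thrombospondin 1 (Thbs1) is a secreted matrix glycoprotein that binds CD36 and CD47 and restrains the growth of blood vessels. Monocytes and macrophages are known sources of tissue factor, factor XIII A subunit, urokinase and its receptor, while most plasma clotting factors are made in the liver.

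Total counts were 13992707 to 16310624 in healthy blood, 10457478 to 20706410 in LLC blood and 11075723 to 11572944 in LLC tumor. Levels are given as CPM, which is counts scaled to the total count of the library. They are not corrected for transcript length, so the levels of different genes are not compared. A total of 3 counts, taken as the floor of detection, corresponds to 0.145 to 0.287 CPM. It covers counting error only. Among the monocyte markers, Csf1r stood at 1998 ± 120.4 CPM (SD, n = 3) in healthy blood and 1336 ± 231.6 CPM in LLC tumor, and the sorting marker Itgam was present in all libraries. The sorting marker Ly6c2 fell from 1153 ± 74.3 CPM in LLC blood to 357.7 ± 103.3 CPM in LLC tumor. Its estimated count was not a whole number in any of the 9 libraries, so some of its reads could also belong to another gene. In all, 3 libraries stood apart. LLC blood 1 had a summed level of 445 CPM over 10 fibroblast markers, against 4.7 and 5.89 CPM in LLC blood 2 and 3. Healthy blood 2 had 167 CPM over the B cell markers found, against 17.3 and 24.3 CPM in healthy blood 1 and 3. LLC tumor 1 had a normalization factor of 0.798, against 1.00 and 0.968 in LLC tumor 2 and 3, and fewer fibroblast counts than they had.

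In LLC tumor, 7 of the 9 genes were higher than in LLC blood and 2 were lower. The genes that rose were Thbs1, F3, F7, F10, Plau, Plaur and Serpinb2, and those that fell were F5 and F13a1. Across all genes tested, 61.3% were called in this comparison, 29.6% higher and 31.7% lower. The median log2 fold change of the 9 genes was 2.80, beside a median of -0.03 over all 12337 genes tested. The CPM values of the tumor libraries did not overlap those of the LLC blood libraries for 9 of the 9 genes, and this held for 68.3% of all genes tested (23.5% higher and 44.8% lower). A gene was called when its adjusted p in edgeR's quasi-likelihood test, corrected by Benjamini-Hochberg over all genes, was under 0.05. The share of called genes that were higher was 48.3%, and it was 36.3% when counts were scaled by library totals only, with a median log2 fold change of -0.23 over all genes. The 9 genes kept their direction in LLC tumor under that scaling.

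Between healthy blood and LLC blood, 3 of the 9 genes were called, all higher in LLC blood (F5, F7 and F10), while 23.6% of all genes tested were called, 14% higher and 9.61% lower. The count of lower genes was 0 in edgeR, with 2 (Plaur and Serpinb2) at an unadjusted p under 0.05, and 1 by DESeq2. Fitted on the 6 blood libraries alone, the count was 5, with 4 higher and 1 lower, and 42.3% of the genes tested in that fit were called. The median log2 fold change was 0.38 over the 8 genes other than F3, which was at the floor in both groups, against -0.01 over all genes. The groups did not overlap for 6 of the 9 genes, 4 higher and 2 lower, and for 51.3% of all genes tested (27.6% higher and 23.8% lower). Between healthy blood and LLC tumor, 8 genes were higher and 1, F13a1, was lower, with 66.5% of all genes tested called (33.5% higher and 33% lower). Here the groups did not overlap for 9 of the 9 genes and for 70.6% of all genes (26.9% higher and 43.7% lower), and the medians were 3.69 and 0.00. The 3 comparisons share libraries in pairs, so their values are given side by side and are not set against each other. In bulk libraries such as these, fewer cells that express a gene cannot be told apart from less of its RNA per cell.

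**Figure D1:**
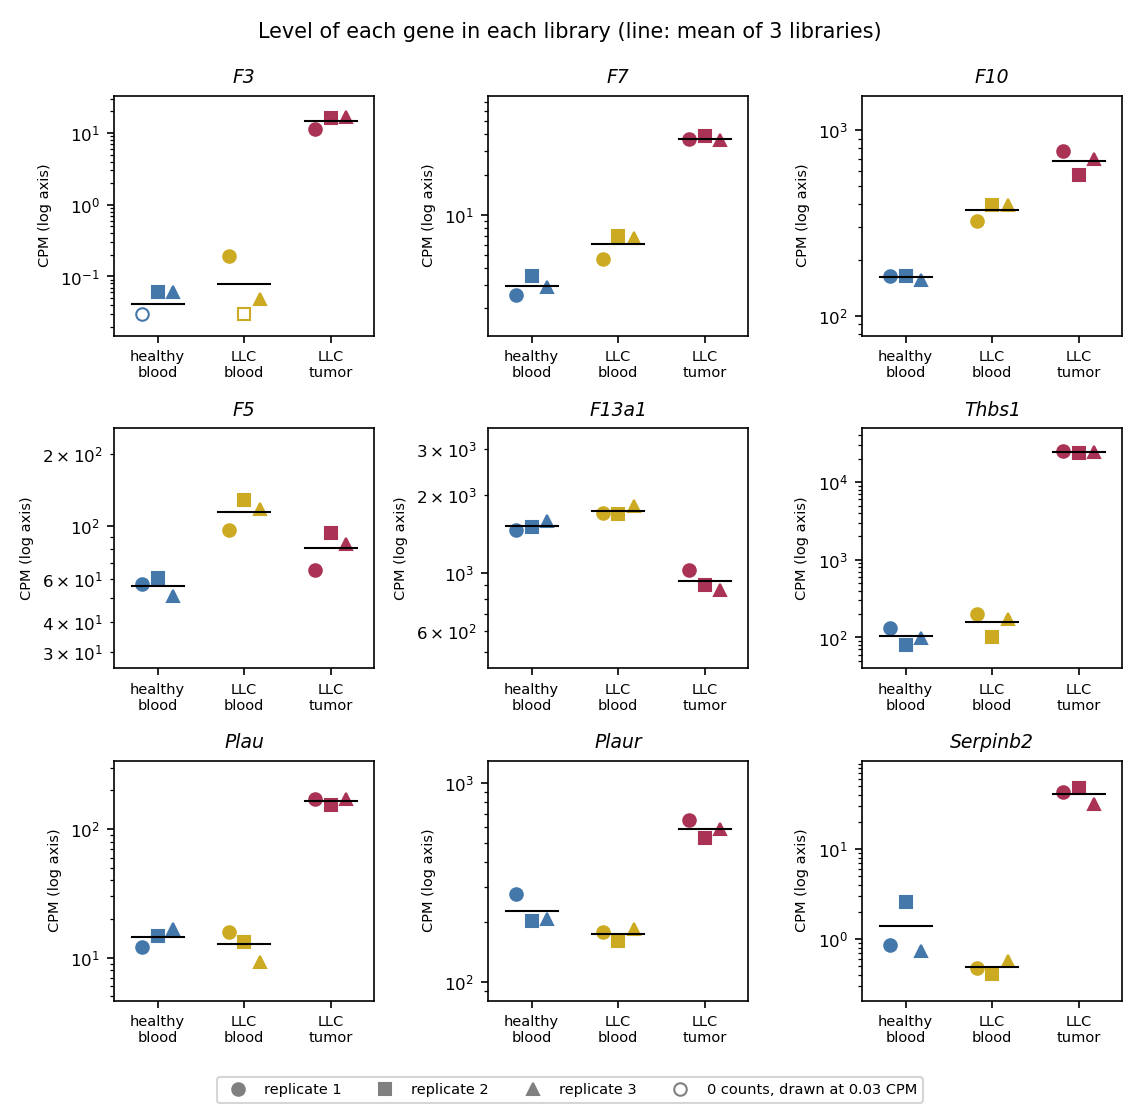
Levels of the 9 genes in CPM in each of the 9 libraries, on log axes, with 1 panel per gene and the group mean marked. Each point is 1 library, and open points are libraries with 0 counts, drawn near the lower edge; the tumor points of Thbs1, from 23644 to 24854 CPM, stand far above all blood points, while those of F5 lie between healthy blood and LLC blood.

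Tissue factor RNA was found in LLC tumor and barely in blood. F3 (ENSMUSG00000028128, chr3:121723537-121735052, mm10), the membrane receptor that starts coagulation, had 0, 1 and 1 counts in healthy blood 1 to 3 and 2, 0 and 1 counts in LLC blood 1 to 3. It had 127, 181 and 192 counts in LLC tumor 1 to 3, or 11.47, 16.04 and 16.59 CPM. All 6 blood libraries lay at or under the floor of 3 counts, and all 3 tumor libraries lay far above it. Pooled over libraries, the ratio of LLC tumor to LLC blood was 224, with an exact 95% interval of 76.2 to 1090 that covers counting error only (500 against 3 counts). The ratio to healthy blood was 343, with an interval of 94.5 to 2842 (500 against 2 counts). The adjusted p was 2.01e-06 against LLC blood and 1.45e-06 against healthy blood. Leaving out LLC blood 1, which held 2 of the 3 counts, moved the fitted log2 difference from LLC blood from 7.78 to 8.79, a value that depends on the prior count at such levels. F3 is given no fold between the blood groups, as both were at the floor, and it is left out of their plotted changes.

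Promoter sequences are shown for F3, Plaur and Serpinb2, which rose in LLC tumor and hold a match to an AP-1 motif, and for F5 and F13a1, which fell there and hold none. F7 and F10, which rose and hold none, are not shown, so the sequences are no contrast of genes that rose with genes that fell. The 250 bases before an annotated start were taken from RefSeq (GRCm38.p6, the mm10 assembly) for 7 of the 9 genes, with 9 start sites in all; Thbs1 and Plau had no entry. Both strands were searched for TGANTCA, the core recognized by AP-1, the Fos and Jun family of transcription factors. Matches are in capitals in the sequences below, each given 5′ to 3′ on the strand of the gene. The windows are chr3:121723287-121723536 (+) for F3, chr7:24462233-24462482 (+) for Plaur, chr1:107511173-107511422 (+) for Serpinb2, chr1:164151585-164151834 (+) for F5 and chr13:37050245-37050494 (-) for F13a1. Serpinb2 and F13a1 have 2 start sites each, of which the farther upstream one is shown. At the other start, Serpinb2 holds the same match at 181 bases and F13a1 holds none. The windows of Plaur and Serpinb2 lie inside the annotated span of their gene, which begins farther upstream.
F3: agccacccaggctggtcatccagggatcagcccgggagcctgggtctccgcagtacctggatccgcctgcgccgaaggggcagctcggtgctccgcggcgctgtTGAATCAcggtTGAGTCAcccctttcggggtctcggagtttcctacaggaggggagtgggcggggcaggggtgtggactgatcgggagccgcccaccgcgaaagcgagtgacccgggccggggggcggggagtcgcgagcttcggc
Plaur: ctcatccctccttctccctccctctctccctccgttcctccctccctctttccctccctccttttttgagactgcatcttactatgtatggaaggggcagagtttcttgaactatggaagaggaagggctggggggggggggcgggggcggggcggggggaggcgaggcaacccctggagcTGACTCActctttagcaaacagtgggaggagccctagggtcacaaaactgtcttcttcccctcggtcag
Serpinb2: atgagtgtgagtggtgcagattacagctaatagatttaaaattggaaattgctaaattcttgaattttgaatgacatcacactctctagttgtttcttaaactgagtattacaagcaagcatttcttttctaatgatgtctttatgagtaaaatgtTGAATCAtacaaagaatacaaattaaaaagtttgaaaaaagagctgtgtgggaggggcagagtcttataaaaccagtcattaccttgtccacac
F5: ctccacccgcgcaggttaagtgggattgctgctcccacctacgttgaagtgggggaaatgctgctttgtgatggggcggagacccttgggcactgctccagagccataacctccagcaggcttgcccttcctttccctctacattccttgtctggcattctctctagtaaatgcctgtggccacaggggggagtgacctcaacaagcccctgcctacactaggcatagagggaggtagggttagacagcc
F13a1: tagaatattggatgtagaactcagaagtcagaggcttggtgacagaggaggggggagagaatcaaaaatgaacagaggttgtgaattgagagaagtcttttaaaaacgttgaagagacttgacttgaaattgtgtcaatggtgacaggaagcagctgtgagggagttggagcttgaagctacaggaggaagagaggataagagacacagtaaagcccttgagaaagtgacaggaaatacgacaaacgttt

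The motif was in the window of 3 of the 7 genes, F3, Plaur and Serpinb2. F3 held it at 146 and 135 bases before the start, Plaur at 69 bases and Serpinb2 at 94 bases. The windows of F7 and F10, which also rose in LLC tumor, and those of F5 and F13a1 held no match, so genes that rose were found with and without it. Among 32851 mouse promoter windows of the same length, 6.75% held at least 1 match and 0.338% held 2 or more. The GC box letters GGGCGG were matched 3 times in F3, 3 times in Plaur and 1 time in F5, and 32.7% of all windows held them. The letters TATAAA were matched 29 bases before the Serpinb2 start, and 12.4% of all windows held them. ACGTG, the core of the hypoxia response element, was matched in F10 at 45 bases and in 16.6% of all windows. A match describes letters and is not evidence that a factor binds there.

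F7 and F10 were higher in LLC blood than in healthy blood and higher again in LLC tumor. F7 (ENSMUSG00000031443, chr8:13025506-13035809), the protease that pairs with tissue factor, stood at 2.501, 3.502 and 2.882 CPM in healthy blood, at 4.69, 6.92 and 6.67 CPM in LLC blood and at 36.7, 39.0 and 36.1 CPM in LLC tumor. The 3 groups did not overlap, and the tumor libraries lay within a narrow range of CPM. CPM leaves out the normalization factors of the fit, 0.798 in LLC tumor 1 against 1.00 and 0.968 in LLC tumor 2 and 3. The log2 difference was 1.02 ± 0.19 (SE) between the blood groups (2.03-fold, adjusted p = 0.00451). It was 2.80 ± 0.17 from LLC blood to LLC tumor (6.97-fold, adjusted p = 1.3e-06) and 3.82 ± 0.18 from healthy blood to LLC tumor (14.1-fold, adjusted p = 3.36e-07).

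F10 (ENSMUSG00000031444, chr8:13037308-13056676), the next protease of the cascade and the neighbour of F7 on chromosome 8, showed the same order of groups. Its levels were 163.9, 162.9 and 155.9 CPM in healthy blood, 323, 394.5 and 394.3 CPM in LLC blood and 767.5, 569.5 and 696.7 CPM in LLC tumor. No library of one group reached the range of another. The log2 difference was 1.18 ± 0.17 between the blood groups (2.26-fold, adjusted p = 0.00178) and 1.09 ± 0.17 from LLC blood to LLC tumor (2.13-fold, adjusted p = 0.000441). Against healthy blood, the tumor level was 4.82-fold higher (adjusted p = 4.92e-06).

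F5 (ENSMUSG00000026579, chr1:164151835-164220277), the cofactor of activated factor X, was highest in LLC blood. Its levels were 57.1, 60.9 and 51.2 CPM in healthy blood, 96.5, 127.8 and 117.8 CPM in LLC blood and 65.8, 93.7 and 84.5 CPM in LLC tumor. The LLC blood libraries lay above all others, although LLC tumor 2 came close to LLC blood 1. The rise in LLC blood was 0.99 ± 0.11 on the log2 scale (1.99-fold, adjusted p = 0.000466). From LLC blood to LLC tumor F5 fell by 0.30 ± 0.11 (adjusted p = 0.0387). That call was lost under 8 of 20 alternatives, among them DESeq2 and the runs without healthy blood 2, LLC blood 2, LLC blood 3, LLC tumor 1 or LLC tumor 3, with a change of -0.23 without LLC tumor 1. Against healthy blood F5 was 1.61-fold higher in LLC tumor (adjusted p = 0.000477). In 7 libraries its estimated count was not a whole number, so some of its reads could also belong to another gene.

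F13a1 (ENSMUSG00000039109, chr13:36867178-37050244), the fibrin cross-linking subunit of factor XIII, was lower in LLC tumor than in either blood group. It stood at 1471, 1505 and 1589 CPM in healthy blood, at 1703, 1693 and 1810 CPM in LLC blood and at 1032, 898.7 and 863.6 CPM in LLC tumor. All 3 tumor libraries lay below all 6 blood libraries. The tumor level was 0.624 times that of LLC blood (log2 difference -0.68 ± 0.15, adjusted p = 0.00309) and 0.699 times that of healthy blood (-0.52 ± 0.15, adjusted p = 0.0119). The LLC blood libraries lay above those of healthy blood without overlap, but the difference of 0.16 ± 0.15 did not pass the test (adjusted p = 0.464). It passed when the fit held the 6 blood libraries alone (adjusted p = 0.0408).

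**Figure D2:**
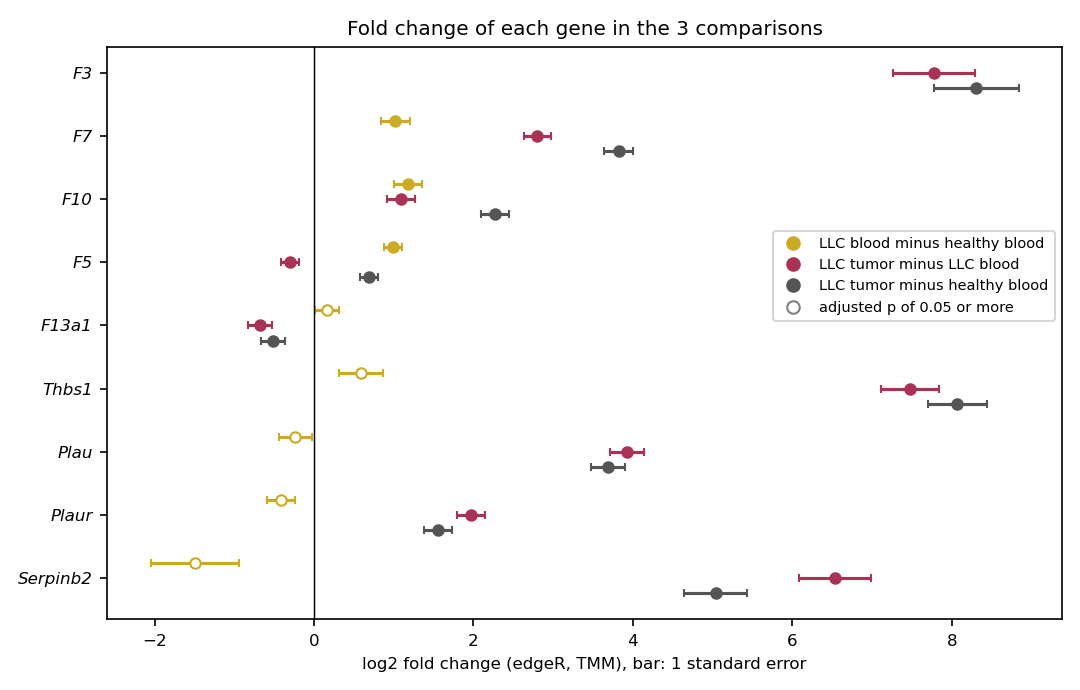
Log2 fold changes of the 9 genes in the 3 comparisons (F3 not between the blood groups), with bars of 1 standard error and filled points where the adjusted p was under 0.05. In LLC tumor against LLC blood 7 genes lie to the right of 0, and F5 and F13a1 lie to the left.

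The urokinase genes were higher in LLC tumor than in either blood group. Plau (ENSMUSG00000021822, chr14:20836662-20843388), urokinase itself, stood at 12.1, 14.6 and 16.7 CPM in healthy blood, at 15.9, 13.1 and 9.27 CPM in LLC blood and at 170.6, 153.4 and 170.4 CPM in LLC tumor. The blood groups overlapped and the tumor libraries lay far above both. The rise from LLC blood was 3.92 ± 0.21 on the log2 scale (15.2-fold, adjusted p = 6.91e-07), and that from healthy blood was 3.69 ± 0.21 (12.9-fold, adjusted p = 7.56e-07). The difference between the blood groups was -0.23 ± 0.21 (adjusted p = 0.455).

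Plaur (ENSMUSG00000046223, chr7:24460937-24475970), the urokinase receptor, stood at 275.3, 203 and 206.5 CPM in healthy blood, at 178.7, 161 and 183.7 CPM in LLC blood and at 648.1, 532 and 587.8 CPM in LLC tumor. The tumor libraries lay above all blood libraries, and the LLC blood libraries lay below those of healthy blood. The rise from LLC blood to LLC tumor was 1.97 ± 0.18 (3.93-fold, adjusted p = 1.36e-05), and from healthy blood it was 1.56 ± 0.18 (2.95-fold, adjusted p = 4.58e-05). Between the blood groups the difference was -0.41 ± 0.17 and did not pass the test (adjusted p = 0.115). It passed under 6 of 20 alternatives, one of them the run without LLC tumor 1 (-0.47, adjusted p = 0.0178), and was -0.26 without healthy blood 1.

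Serpinb2 (ENSMUSG00000062345, chr1:107500892-107525600), the urokinase inhibitor, was near the limit of detection in blood. In healthy blood 1 to 3 it had 12, 42 and 12 counts (0.858, 2.58 and 0.736 CPM). In the LLC blood libraries it had 5, 6 and 12 counts (0.478, 0.415 and 0.579 CPM), and in the tumor libraries 477, 547 and 366 counts (43.1, 48.5 and 31.6 CPM). Healthy blood 2 was above the other blood libraries, and the tumor libraries were far above all of them. The rise from LLC blood was 6.54 ± 0.45 on the log2 scale (92.8-fold, adjusted p = 2.74e-06). From healthy blood it was 5.04 ± 0.39 (32.9-fold, adjusted p = 4.74e-06), and 5.83 without healthy blood 2. Between the blood groups the difference was -1.50 ± 0.55 (adjusted p = 0.0804); DESeq2 called it with an adjusted p of 0.0171, and without healthy blood 2 it was -0.74 (adjusted p = 0.25).

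Thbs1 held more counts than any other gene in all 3 LLC tumor libraries. Thbs1 (ENSMUSG00000040152, chr2:118111876-118127133), the secreted thrombospondin 1, stood at 130.7, 80.6 and 97.8 CPM in healthy blood, at 200.9, 100.6 and 172.8 CPM in LLC blood and at 24854, 23644 and 24772 CPM in LLC tumor. The blood groups overlapped, and no blood library came near the tumor range. In LLC tumor, Thbs1 took 2.36% to 2.49% of all counts and ranked 1 by count in each library, without correction for length. In healthy blood it took 0.00806% to 0.0131% of the counts and ranked 1674 to 2783. The rise was 7.48 ± 0.36 on the log2 scale from LLC blood (178-fold, adjusted p = 4.17e-07) and 8.07 ± 0.37 from healthy blood (269-fold, adjusted p = 2.89e-07). By size of the log2 rise from LLC blood, Thbs1 ranked 191 among the 12337 genes tested. The coefficient of variation of CPM over the 3 libraries was 2.77% in LLC tumor, 24.7% in healthy blood and 32.7% in LLC blood. CPM leaves out the normalization factors of the fit, which were 0.798, 1.00 and 0.968 in LLC tumor 1 to 3. On the scale of the fit the tumor libraries lie farther apart, as LLC tumor 1 had the highest CPM and the lowest factor. Between the blood groups the difference of 0.59 ± 0.28 did not pass the test (adjusted p = 0.155), and it was 0.40 without LLC blood 1, 0.39 without healthy blood 2 and 0.84 without LLC blood 2 (adjusted p = 0.0508). It passed in 1 of 20 alternatives, the fit of the 6 blood libraries with a replicate block (adjusted p = 0.00402).

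The other genes of these pathways were taken from 7 lists with 57 genes, of which 35 passed the filter on low counts. These lists too were chosen with earlier results of these data known. In LLC tumor against LLC blood, 23 of the 35 were higher and 6 lower, beside 29.6% and 31.7% of all genes, with a median log2 fold change of 0.85. Against healthy blood 24 were higher and 4 lower, beside 33.5% and 33% of all genes, with a median of 1.21. Between the blood groups 7 were higher and 6 lower in LLC blood, beside 14% and 9.61% of all genes, with a median of 0.13. That last count depended on single libraries: it was 13 in all, 5 without LLC blood 3, 6 without LLC blood 2, 7 without healthy blood 2 or healthy blood 3, and 17 without LLC tumor 1. The 22 genes that were not tested include those of prothrombin (F2), factors XI and XII (F11, F12), the fibrinogen chains (Fga, Fgb, Fgg) and plasminogen (Plg), whose products circulate in plasma.

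Most tested genes of the plasminogen system were higher in LLC tumor. Of its 10 genes tested, 7 were higher than in LLC blood, 0 lower and 3 not called, where 29.6% of all genes were higher. Against healthy blood 10 were higher, where 33.5% of all genes were. Of these 10 calls, those of the CD18 chain Itgb2 and of Serpine2, named here for this, did not hold with some libraries left out. Itgb2 was lost without any 1 of the 6 blood libraries or LLC tumor 1 (adjusted p of up to 0.126). Serpine2 was lost without any 1 of the healthy blood libraries, LLC tumor 2 or LLC tumor 3 (adjusted p of up to 0.112), and its log2 difference of 5.41 was 7.89 without healthy blood 2 and 4.81 without LLC tumor 2. Plat, the tissue plasminogen activator, had 2 counts over the LLC blood libraries and 646 over the tumor libraries, a pooled ratio of 434 with an exact 95% interval of 120 to 3594 that covers counting error only. Its tumor libraries stood at 5.60, 22.3 and 28.8 CPM, and its adjusted p was 1.13e-05. Plgrkt, a plasminogen receptor, rose by 1.64 ± 0.16 (adjusted p = 2.61e-05). Between the blood groups, Lrp1, the endocytic receptor that clears protease and inhibitor complexes, was 1.26 ± 0.10 higher in LLC blood (adjusted p = 1e-04). Itgam, the CD11b chain that binds fibrinogen and the urokinase receptor, was higher by 0.62 ± 0.15 (adjusted p = 0.0154), a call lost without healthy blood 2, healthy blood 3, LLC blood 2 or LLC blood 3 (adjusted p of 0.056 to 0.0689).

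Genes that hold coagulation back were also changed. Tfpi, the inhibitor of the tissue factor and factor VII complex, was the gene tested of 2 in its list, and it rose from 3.56 ± 0.344 CPM in LLC blood to 17.2 ± 8.63 CPM in LLC tumor (log2 2.43 ± 0.32, adjusted p = 0.000146). Of the 5 genes tested in the anticoagulant list, 3 (Procr, Gas6 and Thbd) were higher and 2 (Pros1 and Proz) were lower in LLC tumor than in LLC blood. Across all genes tested, 29.6% were higher and 31.7% lower. Gas6 stands in the list as a relative of protein S, not as a known anticoagulant. Proz, protein Z, was named after its values were seen, and its call was lost without LLC blood 3 or LLC tumor 1 (adjusted p of 0.0815 and 0.0567). Procr, the endothelial protein C receptor, rose by 5.55 ± 0.45 (adjusted p = 7.47e-06) and Gas6, a ligand of the TAM receptors related to protein S, by 4.76 ± 0.70 (adjusted p = 0.000278). Pros1, protein S itself, fell by 1.10 ± 0.19 (adjusted p = 0.000858), so the related genes moved in opposite directions. Against healthy blood, Thbd, thrombomodulin, rose from 102.5 ± 19.4 to 169.8 ± 14.5 CPM (log2 0.90 ± 0.13, adjusted p = 0.000214). Pros1 was 0.61 ± 0.19 higher in LLC blood than in healthy blood (adjusted p = 0.0453), but not in 6 of the runs with a library left out (healthy blood 1, 2 or 3, LLC blood 2 or 3, LLC tumor 3), where the adjusted p reached 0.155.

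Few genes of the common and intrinsic pathway and of fibrin were expressed enough to test. Of 10 common and intrinsic pathway genes, 3 were tested. Ano6, the scramblase that exposes phosphatidylserine for clotting factors to bind, was 0.43 ± 0.06 higher in LLC blood than in healthy blood (adjusted p = 0.00173). In LLC tumor its level of 153.6 ± 15.3 CPM overlapped that of LLC blood (154.3 ± 1.28 CPM). The fit, which applies the TMM factors, placed it 0.19 ± 0.06 higher there (adjusted p = 0.0242), a call lost without healthy blood 1 or 3, any 1 of the LLC blood libraries or LLC tumor 2, with an adjusted p of up to 0.151. Vkorc1, which recycles vitamin K for clotting factor synthesis, was lower in LLC blood, with a log2 difference of -0.56 ± 0.17 (adjusted p = 0.0398), a call also lost without healthy blood 1, 2 or 3, LLC blood 2 or 3 or LLC tumor 3, up to an adjusted p of 0.154. Of 6 fibrin and cross-linking genes 2 were tested, Tgm2 and Vwf. Vwf, von Willebrand factor, named after its values were seen, had a log2 difference of -0.70 ± 0.21 between LLC tumor and LLC blood (adjusted p = 0.0171, and 0.0566 without LLC tumor 3). Tgm2, a transglutaminase related to the factor XIII A subunit, rose from 33.7 ± 4.55 CPM in LLC blood to 1752 ± 429.6 CPM in LLC tumor (log2 5.93 ± 0.30, adjusted p = 4.88e-07), while F13a1 fell in the same libraries.

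The protease-activated receptors, which thrombin and other proteases of the cascade cleave, were lower in LLC blood and higher in LLC tumor. Of 4 receptors 3 were tested (F2r, F2rl1 and F2rl2). All 3 were called lower in LLC blood against healthy blood and higher in LLC tumor than in LLC blood. For all genes tested, these shares were 9.61% and 29.6%. F2r and F2rl1 were also higher in LLC tumor than in healthy blood. The blood values rest on low levels and were named after they were seen. Healthy blood held F2rl1 at 0.900 CPM and F2rl2 at 1.13 CPM. In LLC blood 1 to 3, F2rl1 had 1, 3 and 5 counts and F2rl2 had 1, 1 and 4, at or near the floor of 3 counts. The log2 difference was -3.32 ± 0.73 for F2r (adjusted p = 0.0109), -2.19 ± 0.54 for F2rl1 (adjusted p = 0.0182) and -3.09 ± 0.53 for F2rl2 (adjusted p = 0.00361). The call of F2r was lost without LLC blood 2 or 3, with an adjusted p of up to 0.0583. That of F2rl1 was lost without healthy blood 3 or any 1 of the LLC blood libraries, with an adjusted p of up to 0.0652. F2rl2 stayed called and was -3.69 without LLC blood 3. The T cell markers fell between the same groups, and healthy blood 1 to 3 had F2r at 3.43, 4.79 and 10.2 CPM beside a T cell sum of 34.3, 80.9 and 131 CPM. The summed platelet markers were lower too, at 8.89, 13.5 and 8.11 CPM for LLC blood 1 to 3. Healthy blood 1 to 3 had 13.8, 42.3 and 22.2 CPM, beside F2rl2 at 0.572, 1.41 and 1.41 CPM. Of 10 platelet markers tested between these groups, 2 were called lower and 0 higher. The part of T cells, other lymphocytes or platelets in these values was not tested. F2r, the main thrombin receptor, stood at 6.13 ± 3.57 CPM in healthy blood, 0.666 ± 0.339 CPM in LLC blood and 50.2 ± 29.8 CPM in LLC tumor (log2 6.45 ± 0.69 from LLC blood, adjusted p = 3.78e-05). F2rl1, cleaved by trypsin-like proteases and by the tissue factor complex, rose by 5.80 ± 0.50 from LLC blood (adjusted p = 1.11e-05), to 10.2 ± 5.48 CPM.

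Among thrombospondins and their receptors, 7 of 11 genes tested were higher and 3 lower in LLC tumor than in LLC blood. The shares of all genes were 29.6% and 31.7%. Of the 7 higher genes, Thbs3 lost its call without LLC tumor 3 (adjusted p = 0.052). Its level in LLC tumor 1, 4.24 CPM, lay below those of LLC blood (6.33 to 7.75 CPM). Itgav, named here for this, lost its call without healthy blood 1, any 1 of the LLC blood libraries or LLC tumor 2 (adjusted p of up to 0.138). The lower genes of this list, named after their values were seen, were Itga4 (-2.76 ± 0.11, adjusted p = 2.08e-07), Itgb3 (-1.18 ± 0.18, adjusted p = 0.000355) and Comp (-1.95 ± 0.64, adjusted p = 0.0241). Comp was called neither without LLC blood 1 nor without LLC tumor 2 or 3 (adjusted p of up to 0.0852). In all 9 libraries the estimated count of Itga4 was not a whole number, so some of its reads could also belong to another gene. Thbs2, the close relative of Thbs1, rose from 1.70 ± 2.59 CPM to 178.8 ± 121.0 CPM (log2 7.18 ± 0.94, adjusted p = 0.000137), and by 9.85 without LLC blood 1 or 6.46 without LLC blood 3. The integrin subunits Itga3 and Itga6, which can bind thrombospondins or laminins, rose by 5.49 ± 0.63 (adjusted p = 5.98e-05) and 2.93 ± 0.19 (adjusted p = 1.99e-06). Thbs3 was 3.48 ± 0.55 higher in LLC tumor than in healthy blood (adjusted p = 4e-04). Cd36, a thrombospondin 1 receptor, was lower in LLC blood (7.55 ± 1.53 CPM) than in healthy blood (42.7 ± 5.35 CPM), with a log2 difference of -2.54 ± 0.28 (adjusted p = 0.000413). Itgb3, the beta 3 integrin chain of platelets and macrophages, was also lower in LLC blood (-1.01 ± 0.17, adjusted p = 0.00285). Itga4, part of the VLA-4 integrin, was 0.46 ± 0.11 higher in LLC blood (adjusted p = 0.0135), and this call was lost without healthy blood 2, healthy blood 3 or LLC blood 3 (adjusted p of 0.0604 to 0.0721).

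**Figure D3:**
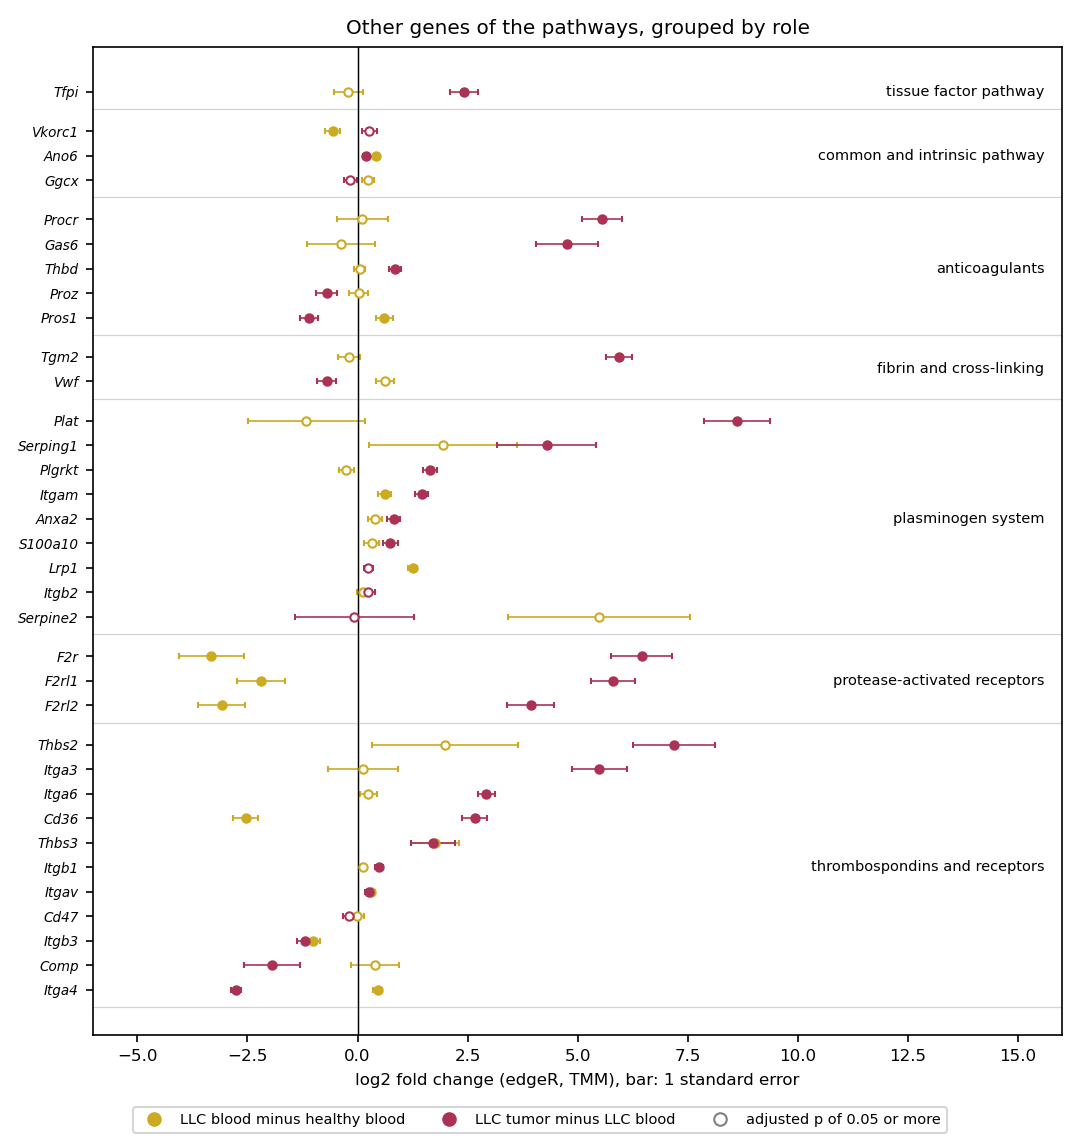
Log2 fold changes of tested genes of the 7 pathway lists in LLC tumor against LLC blood and in LLC blood against healthy blood, 1 point per gene and comparison with a bar of 1 standard error, filled where the adjusted p was under 0.05. The plasminogen system genes shown have no called point below 0 in LLC tumor, and the 3 protease-activated receptors lie below 0 in LLC blood and above 0 in LLC tumor.

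Markers of other cells moved along with the groups, and their part in the results above was not tested. Between the blood groups, the lymphocyte and dendritic cell markers fell. Of all genes tested, 14% were called higher and 9.61% lower there. The 6 T cell markers found summed to 34.3 to 131 CPM in the healthy blood libraries and, in those of LLC blood, to 4.22 to 9.32 CPM, with 6 of 6 called lower. In the same order, the sum of the 7 NK cell markers was 196 to 447 CPM and 35.7 to 52.4 CPM, with 7 of 7 lower. That of the 8 dendritic cell markers was 99 to 107 CPM and 33.5 to 52.5 CPM, with 6 of 7 tested lower. That of the 6 B cell markers found was 17.3 to 167 CPM and 10.4 to 14.5 CPM, with 1 of 2 tested lower. That of the 10 neutrophil markers found was 674 to 901 CPM and 786 to 1248 CPM, with 2 of 10 tested higher and 0 lower. The lists that follow set LLC tumor beside LLC blood, where 29.6% of all genes tested were called higher and 31.7% lower. The 8 endothelial markers summed to 6.36 to 11.7 CPM in LLC blood and 16.8 to 25.3 CPM in LLC tumor, with 2 of 3 tested called higher. The 7 resident-type macrophage markers summed to 332 to 365 CPM and 193 to 245 CPM, with 2 of 4 tested higher and 2 lower. The 10 fibroblast markers summed to 7.13 to 19.4 CPM in healthy blood, 4.7 to 445 CPM in LLC blood and 999 to 4210 CPM in LLC tumor, with 6 of 10 called higher in LLC tumor than in LLC blood and none at 0 in all tumor libraries. The 9 markers of LLC or other epithelial tumor cells summed to 5.88 to 9.66 CPM in LLC blood and 87.3 to 227 CPM in LLC tumor, with 5 of 7 tested called higher and 1, Krt7, lower (log2 -1.86 ± 0.39, adjusted p = 0.00251). The epithelial markers Epcam and Krt19 had at most 3 counts in any tumor library. The 12 dissociation stress genes respond quickly when tissue is taken apart. They summed to 1129 to 3897 CPM in LLC blood and 11419 to 13656 CPM in LLC tumor, and 11 of the 12 were called higher. Their sum in LLC blood 1 was 3897 CPM, against 1296 and 1129 CPM in LLC blood 2 and 3.

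Platelets carry thrombospondin 1, factor V and factor XIII. The 16 platelet markers summed to 13.8 to 42.3 CPM in healthy blood, 8.11 to 13.5 CPM in LLC blood and 147 to 226 CPM in LLC tumor. Most of the tumor sum was from the chemokines Pf4 (100.1 ± 26.0 CPM) and Ppbp (89.4 ± 22.3 CPM), which were called higher than in LLC blood. Without these, the other 14 markers summed to 9.15 to 30.6 CPM, 6.71 to 10.4 CPM and 5.15 to 10.5 CPM, with Mmrn1 at 0 in all 3 tumor libraries and 9 of the 16 at or under 3 counts in each of them. The part of platelet RNA in the levels of these genes was not tested.

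LLC tumor 1 had less fibroblast RNA than the other tumor libraries. The fibroblast sum in LLC tumor 1 was 0.253 times the mean of LLC tumor 2 and 3, and that of the epithelial tumor cell markers was 0.433 times. For the 9 genes the same ratio lay between 0.703 (F3) and 1.21 (F10), with 1.03 for Thbs1, 1.05 for Plau, 1.16 for Plaur and 1.08 for Serpinb2. All these ratios are of CPM, without the normalization factors of the fit (0.798 in LLC tumor 1, 1.00 and 0.968 in LLC tumor 2 and 3). With those factors every ratio would be larger. Of the 23 pathway genes called higher in LLC tumor than in LLC blood, 8 had a ratio under 0.5, a limit chosen after the values were seen. These were F2r (0.236), F2rl1 (0.299), Itga3 (0.195), Plat (0.219), Tfpi (0.34), Thbs2 (0.186), Thbs3 (0.147) and Serping1 (0.18), the last of which is named here for its ratio. Tgm2 had a ratio of 1.48 and Procr of 0.863. F3 and F5 (0.739) were the lowest of the 9 genes. A comparison of 1 library with 2 allows no test, and the part of fibroblast or tumor cell RNA in these levels was not tested.

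**Figure D4:**
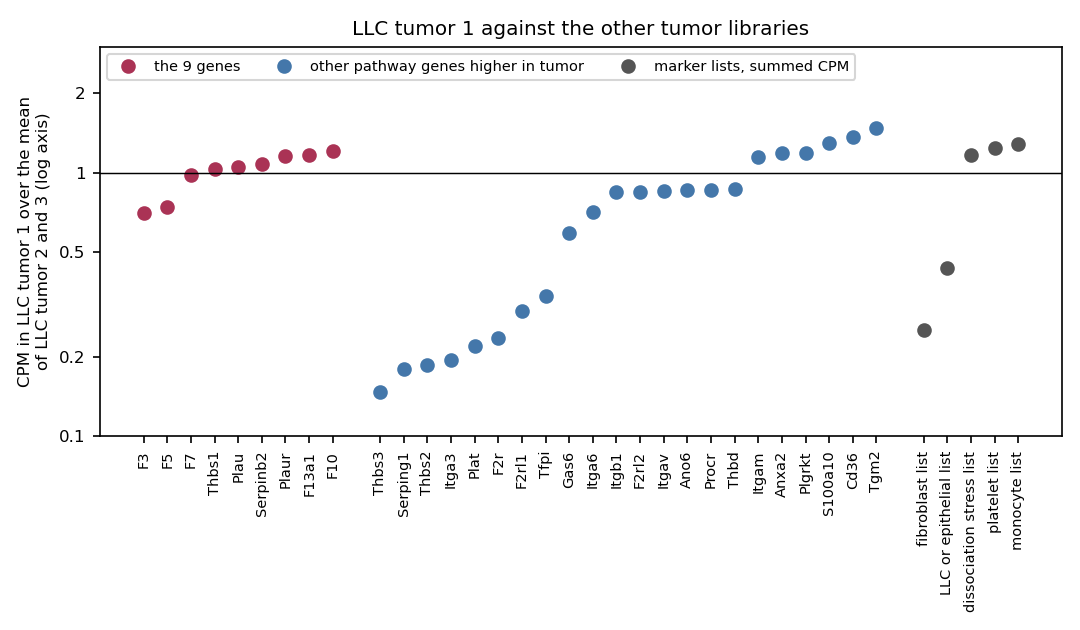
Ratio of the CPM in LLC tumor 1 to the mean CPM of LLC tumor 2 and 3, on a log axis, for the 9 genes, for pathway genes called higher in LLC tumor and for summed marker lists. CPM is scaled to library totals, and with the normalization factors of the fit every ratio would be larger. The 9 genes lie between 0.703 and 1.21, while Thbs2, Thbs3, Plat and the fibroblast list lie at 0.253 or below.

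Log2 CPM values with the TMM factors and a prior count of 2, unlike the CPM given above, were centred on their own mean. The prior count narrows the differences of genes near the floor, such as F3 in blood. Genes with the most similar patterns were sought over the 9 libraries among 6898 genes, by the root mean square difference of these values. For Thbs1 they were Basp1 (0.278), Egln3 (0.428) and Spp1 (0.528). For F3 they were Mmp14 (0.333), Ier3 (0.442) and Sdc1 (0.461), and for Serpinb2 Myo1e (0.392), C1qb (0.407) and Ppbp (0.426). These differences are larger than those of the genes that follow. For Plau they included Mif (0.157) and Csrnp1 (0.234), and for Plaur Blcap (0.112), Smim3 (0.124) and Ell (0.128). For F7 they were Ifitm1 (0.174), Ccr1 (0.209) and Cttnbp2nl (0.21), and for F10 Il4ra (0.14), Tgfbi (0.183) and Tfec (0.189). No gene was among the nearest 3 of 2 members. For F5 they were Dnajc13 (0.078), Bptf (0.079) and Herc1 (0.084), and for F13a1 Ebp (0.068), Adgre1 (0.075) and Lims1 (0.076). The likeness is a description over libraries that share group, depth and sort, and it was given no test.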

How the data were processed

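RNA-seq reads of 9 libraries of sorted monocytes were analysed; 22 other samples of the series (ATAC-seq, CUT&Run, CUT&Tag) were not analysed here. Per the submitters' processing notes, Trim Galore 0.6.7, cutadapt 3.4, STAR 2.6.1d, Salmon 1.9.0 and edgeR are among the tools named, with the mm10 build. The authors deposited estimated counts per gene, not normalized, and a table of CPM values for 10693 genes; how those genes were chosen is not given in the sources used here. Of its CPM values, 100% were whole multiples of 1 read (tolerance 0.01). Column heads with the letters BM were read as blood monocyte, as the sample titles name blood; bone marrow is another possible reading that the tables leave undecided, so blood here means the source the titles give.

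Counts were rounded and all 9 libraries were fitted together in edgeR 4.0.16 (R 4.3.3) on group alone, with TMM factors and filterByExpr, which kept 12337 of 18544 genes with a count. The quasi-likelihood test was adjusted by Benjamini-Hochberg over all genes in each of 3 comparisons and called under 0.05. CPM values in the text are counts over the total of all table entries. Alternatives were other scalings, no filter, DESeq2 1.42.0, limma-voom (limma 3.58.1), a replicate block and each library left out; the count test was also run on the genes of the CPM table. The scripts were tested on simulated counts.

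All 9 members were named. Of the other pathway genes, at most 3 per list and comparison with the largest change were named among called genes averaging at least 5 CPM, and the 3 most similar genes per member among genes averaging at least 20 CPM. A few named genes are not reported here. Members and lists were chosen with earlier results of these data known.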

Additional observations from a re-analysis of the deposited data

How the results depend on the processing

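The tumor calls of the 9 genes held their direction under all 20 alternatives, and each kept its side of the threshold there except F5 against LLC blood, which was lost in 8. The number of the 9 genes called between the blood groups was 3, but 5 in a fit of the 6 libraries alone and 6 with the replicate block in those libraries; with the block in all 9 libraries it was 4, and with single libraries left out 3 to 4. The direction of F3 between the blood groups, where it was at the floor, reversed to -0.29 with limma-voom sample quality weights and lay between -0.49 (without LLC blood replicate 1) and 1.05 (without LLC blood replicate 2) with single libraries left out. For the other pathway genes the blood count of 13 was 5 at an adjusted p under 0.01, 7 with a log2 change of at least 1, and 5 to 17 with single libraries left out. Over all genes, the blood count of 2917 was 5884 with limma-voom sample quality weights, 4889 in the 6 libraries alone, 4820 there with the replicate block, 1386 at an adjusted p under 0.01, 769 with a log2 change of at least 1, and between 1494, when LLC blood 2 was left out, and 5064, when LLC tumor 1 was. With a log2 change of at least 1, the count fell from 7566 to 3538 for LLC tumor against LLC blood and from 8208 to 3989 against healthy blood. The cause was not tested, except that the stricter limits admit fewer genes by construction. Upper-quartile scaling lowered the share of called genes that were higher in LLC blood than in healthy blood from 59.4% to 46.3%.

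The labels do not say what the replicate numbers mark, and not every same-numbered pair reached a correlation of 0.1, so the libraries were not treated as paired. Deviations of same-numbered libraries correlated at 0.297, 0.181 and 0.073 between the blood groups, at -0.078, 0.12 and -0.137 between LLC blood and LLC tumor and at 0.076, 0.05 and 0.092 between healthy blood and LLC tumor, and LLC blood 3 correlated best with healthy blood 2 (0.098). With 3 libraries per group, an exact permutation test of 1 gene could not go below p = 0.1. Depth limits F3 and Serpinb2 in blood, where few counts were found.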
